A study of Mus musculus with 6 samples.

Results

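The 10 genes described here are names commonly used to recognise blood vessel cells in brain RNA, and all 10 were found by symbol among the 20040 gene entries of the table. Kdr, Flt1, Cldn5, Pecam1, Tek, Tie1, Slco1a4 and Esam are the 8 endothelial names, and Pdgfrb and Rgs5 are the 2 pericyte names. Messenger RNA was sequenced from cultures of cortical neurons prepared from C57BL/6 mouse embryos at embryonic day 18, with 3 wild-type (WT) libraries and 3 libraries labelled KDM6B KO. KDM6B is a histone demethylase that removes the repressive trimethyl mark from lysine 27 of histone H3. The cortex was dissociated with papain and plated in serum before a serum-free neuronal medium, and the labels name the cell type as neuron for every library. Which part of Kdm6b was deleted, in which cells, and whether the 3 libraries of a group came from separate embryos is not stated in the labels. The p-values therefore measure how far these libraries vary, which may be technical variation only.

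Values are TPM, a gene's share of all transcripts in the library, corrected for transcript length and scaled to 1000000. Kdm6b itself was at 30.3 to 30.9 TPM in WT and 11.1 to 12.0 TPM in KO, so the targeted gene was lower in every library labelled KO, at 37.3% of the WT mean. The Y-linked gene Ddx3y was at 25.9 to 26.3 TPM in WT and at 0.0652 to 0.191 TPM in KO, and Xist was at 70.8 to 77.7 TPM in WT and at 224.3 to 240.7 TPM in KO. The sex mix of the embryos therefore differed between the groups, and sex and genotype cannot be told apart in any result below. The libraries held 19984490 to 23769186 counts each, as recovered from the TPM values.

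Brain endothelial cells line the vessels, sealed by tight junctions and equipped with transporters, and form the blood-brain barrier together with pericytes, which wrap the capillary wall. VEGF signals to endothelial cells through the receptors encoded by Kdr and Flt1, and angiopoietins signal through Tek, with Tie1 as its partner receptor. Endothelial cells secrete PDGF-B to recruit pericytes, which carry its receptor, Pdgfrb.

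Kdr and Slco1a4 fell in KO, and they had the highest levels of the 8 endothelial names. Some endothelial genes outside the 10 stood at higher levels and are given below. Kdr fell to 61.0% and Slco1a4 to 32.4% of the WT mean. The other endothelial names lay near or below 1 TPM in every library. Of these, only Pecam1 was high enough to be tested, and it did not pass, nor did either pericyte gene. Of the 10 genes, 5 averaged 0.5 TPM or more across all libraries and were tested with limma on log2(TPM + 0.5), with Benjamini-Hochberg adjustment over the 14983 genes tested and a call at an adjusted p below 0.05. Of these 5 genes, 2 were called lower, beside 6.74% of all tested genes, and 0 were called higher, beside 4.15%. The 2 genes called lower were also the only ones of the 10 whose WT and KO libraries did not overlap, which held for 31.7% of all tested genes. The same 2 were the only members with an unadjusted p below 0.05, and limma voom on the recovered counts called the same number lower and 0 higher. Over all 14983 genes tested, limma voom called 1423 lower and 1171 higher, which is the background for its counts in the lists below. How many of all genes had an unadjusted p below 0.05 was not counted.

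**Figure D1:**
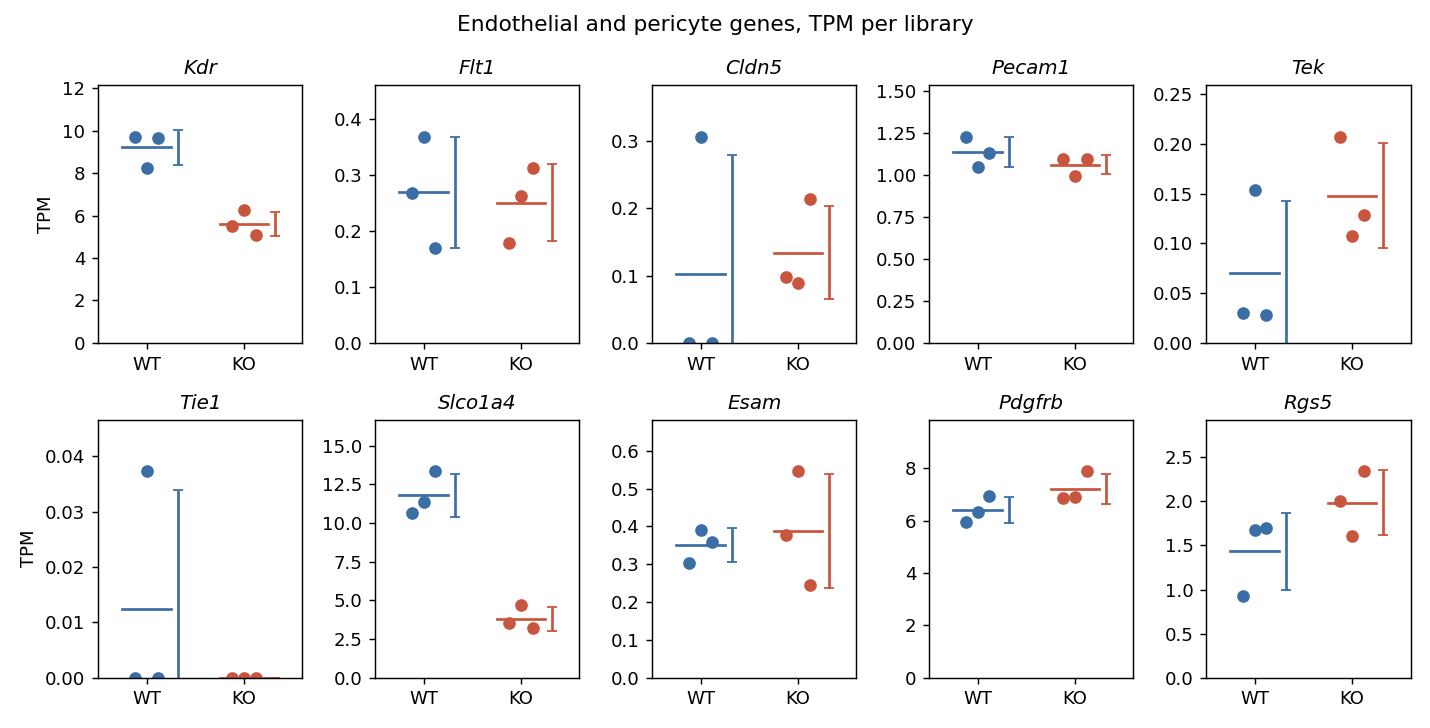
TPM of each of the 10 genes in the 3 WT and the 3 KO libraries (points), with the mean and SD of each group; error bars that would pass below 0 are cut at the axis. The WT and KO points of Kdr and Slco1a4 stand apart, while those of the other 8 genes overlap or lie at or near 0.

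The gene start regions of the 2 genes that fell are shown with that of Cldn5, which is the defining tight junction gene of brain endothelium and was at or near 0 in all 6 libraries. Each sequence runs 5′ to 3′ on the gene's strand, from 250 bases before to 50 bases after the RefSeq start on GRCm38.p6, with every CG dinucleotide in capitals. Kdr lies at chr5:75978406-75978705 (minus strand), Slco1a4 at chr6:141856171-141856470 (minus strand) and Cldn5 at chr16:18776597-18776896 (plus strand).
Kdr: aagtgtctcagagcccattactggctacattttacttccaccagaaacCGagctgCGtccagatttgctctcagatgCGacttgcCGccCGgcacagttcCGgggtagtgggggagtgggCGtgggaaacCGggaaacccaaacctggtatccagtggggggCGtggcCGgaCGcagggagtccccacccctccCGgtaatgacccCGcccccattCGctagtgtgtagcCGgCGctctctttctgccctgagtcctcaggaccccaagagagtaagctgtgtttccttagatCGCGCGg
Slco1a4: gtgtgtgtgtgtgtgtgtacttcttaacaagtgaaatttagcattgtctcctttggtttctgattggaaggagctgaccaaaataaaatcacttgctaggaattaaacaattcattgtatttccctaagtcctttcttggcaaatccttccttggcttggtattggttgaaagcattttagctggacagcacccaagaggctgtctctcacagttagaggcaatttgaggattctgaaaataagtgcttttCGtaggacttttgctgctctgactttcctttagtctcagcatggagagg
Cldn5: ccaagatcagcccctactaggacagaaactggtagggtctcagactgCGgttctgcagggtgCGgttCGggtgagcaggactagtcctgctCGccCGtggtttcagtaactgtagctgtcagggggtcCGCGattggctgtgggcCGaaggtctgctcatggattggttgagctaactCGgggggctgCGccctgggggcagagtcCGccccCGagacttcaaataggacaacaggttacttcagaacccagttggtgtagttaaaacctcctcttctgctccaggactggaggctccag
The Kdr window held 19 CG dinucleotides, and 28.1% of 32851 RefSeq windows of 300 bases held at least as many. Slco1a4 held 1, and 14.1% of the windows held at most that many, against a median of 7 over all windows. The 2 genes that fell in KO therefore had start regions of opposite kinds in CG content. Cldn5 held 12. Of the 10 genes, 7 had an entry in the promoter table, and the other 4 of these were Flt1 with 29, Tie1 with 7, Rgs5 with 6 and Tek with 3. The letters AGGAAGT or CGGAAGT, a core bound by ETS factors that act at many endothelial genes, were searched on both strands. They occurred in 1 of the 7 windows, that of Flt1, and in 15.1% of all windows.

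Kdr encodes VEGF receptor 2, the main signalling receptor for VEGF-A on endothelial cells (GRCm38 chr5:75932827-75978458, minus strand). It was at 9.72, 8.26 and 9.66 TPM in the 3 WT libraries and at 5.50, 6.24 and 5.11 TPM in the 3 KO libraries. Every KO library lay below every WT library. The group means were 9.21 ± 0.828 and 5.62 ± 0.576 TPM (SD, n = 3 each), from 1084 counts in WT and 668 in KO. The fitted log2 difference was -0.67 (SE 0.10, 95% interval -0.90 to -0.43, limma adjusted p = 0.0058). Kdr shared no exact stretch of 50 bases with its relatives Flt1 or Flt4.

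Flt1 encodes VEGF receptor 1, which binds VEGF-A tightly and acts largely as a trap for it. It was at 0.268, 0.369 and 0.170 TPM in the WT libraries and at 0.178, 0.262 and 0.313 TPM in the KO libraries, with 36 and 34 counts per group. The groups overlapped, and the gene was under the filter, so it had no test. Of the paired VEGF-A receptors, only Kdr was thus measured with enough counts for a comparison.

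Tek encodes TIE2, the angiopoietin receptor. Its 7 counts in WT and 15 in KO came to 0.0298, 0.154 and 0.0283 TPM and to 0.208, 0.108 and 0.129 TPM, with overlapping groups. Tie1, the partner receptor, had 1 count in all 6 libraries, in WT library 2. A count of 0 in a library allows up to 3 counts, which is 0.0978 to 0.117 TPM for Tie1, and this limit covers counting error only. Tie1 was thus at the detection limit in all 6 libraries. Tek was above 3 counts in WT library 2 and in all 3 KO libraries, at counts too low to pass the filter, so it had no test.

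Among the junction genes, Cldn5, which encodes the claudin that seals brain capillaries, had 0, 3 and 0 counts in WT and 1, 1 and 2 in KO, against a limit of 0.268 to 0.321 TPM for 3 counts. Esam, an endothelial adhesion molecule, was at 0.303, 0.390 and 0.359 TPM in the WT libraries and at 0.376, 0.546 and 0.245 TPM in the KO libraries. Pecam1, or CD31, sits at endothelial cell borders and is also made by platelets and some leukocytes. It was the only junction gene tested, and its libraries lay between 1.05 and 1.23 TPM in WT and between 0.995 and 1.10 TPM in KO, with overlapping ranges. Its log2 difference of -0.07 (SE 0.17) had a 95% interval of -0.46 to 0.33 and an adjusted p of 0.85. On this scale, which shrinks the differences of low genes, the interval does not exclude a fall of the relative size seen for Kdr.

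Slco1a4 encodes OATP1A4, an organic anion transporter of brain capillary endothelium (chr6:141805440-141856199, minus strand). It was at 10.6, 11.4 and 13.4 TPM in the WT libraries and at 3.54, 4.70 and 3.20 TPM in the KO libraries, and every WT library lay above every KO library. The group means were 11.8 ± 1.41 and 3.81 ± 0.783 TPM (SD, n = 3 each), from 973 and 320 counts. The log2 difference was -1.52 (SE 0.14, 95% interval -1.85 to -1.19, limma adjusted p = 0.00091), the strongest fall among the 5 tested genes. Slco1a4 has near relatives beside it on the chromosome, and 2.65% of its 3774 stretches of 50 bases also occurred in Slco1a5, 2.23% in Slco1a1 and 1.27% in Slco1a6.

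Those relatives were low in these libraries. Slco1a5 was at 2.60, 2.47 and 3.46 TPM in the WT libraries and at 1.76, 2.11 and 1.01 TPM in the KO libraries, without overlap between the groups. It did not pass with limma (adjusted p = 0.10) and passed with limma voom (adjusted p = 0.013). Slco1a6 had 7 counts in WT and 2 in KO, and Slco1a1 had 3 and 1. Slco1c1, a thyroid hormone and anion transporter of brain endothelium and astrocytes that shared none of these stretches, was at 75.4 ± 0.977 TPM in WT and 79.1 ± 7.02 TPM in KO (adjusted p = 0.54). Slco5a1, the only member of the 12-gene Slco list that was called, rose to 124.6% of WT (adjusted p = 0.022), and that call was lost (adjusted p up to 0.077) when any 1 of the 6 libraries was left out.

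The ratio of Slco1a4 to Kdr was 1.09, 1.38 and 1.38 in WT and 0.643, 0.753 and 0.628 in KO. The groups did not overlap, and an exact two-sided permutation test gave p = 0.1, the smallest that 3 against 3 allows. Groups that do not overlap can give no other value, so this test adds no support, and the ratio only restates that Slco1a4 fell further than Kdr. In WT, Slco1a4 stood above Kdr in every library, and in KO it stood below Kdr in every library.

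**Figure D2:**
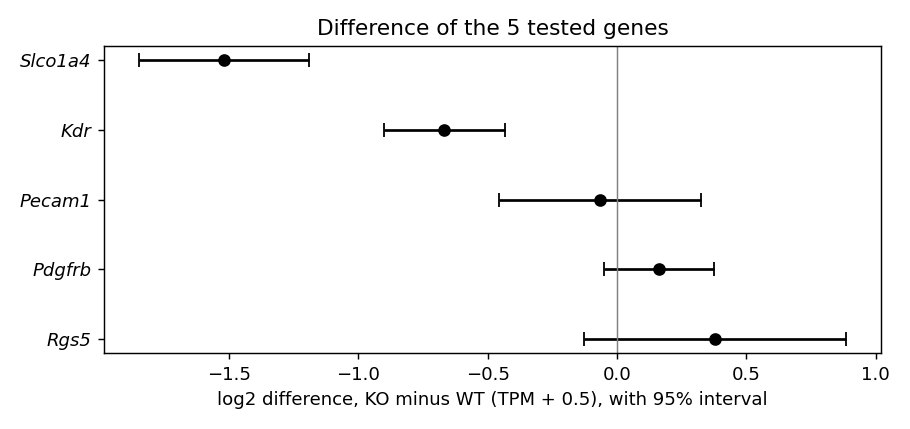
Log2 difference of KO from WT on log2(TPM + 0.5) for the 5 genes that were tested, with 95% intervals from limma; the other 5 genes had no test. The intervals of Kdr and Slco1a4 lie below 0, and those of Pecam1, Pdgfrb and Rgs5 include 0.

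Both pericyte genes had higher means in KO, and neither passed the test. Pdgfrb, the receptor for PDGF-B, stood at 5.93, 6.34 and 6.92 TPM in the WT libraries and at 6.85, 6.92 and 7.88 TPM in those of the KO. The fitted log2 difference was 0.16 (95% interval -0.05 to 0.37, adjusted p = 0.31). Rgs5, a regulator of G-protein signalling typical of pericytes, was at 0.930, 1.68 and 1.69 TPM in the WT libraries and at 2.00, 1.61 and 2.34 TPM in the KO libraries. Its log2 difference was 0.38 (95% interval -0.13 to 0.88, adjusted p = 0.33). In both genes the highest WT library overlapped the lowest KO library. Their summed level was 6.86 to 8.61 TPM in WT and 8.52 to 10.2 TPM in KO, while that of Kdr and Slco1a4 was 19.6 to 23.0 and 8.31 to 10.9 TPM.

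Levels per length were ordered, in WT, as Slco1a4, Kdr, Pdgfrb, Rgs5, Pecam1, Esam, Flt1, Cldn5, Tek and Tie1. In KO, Pdgfrb stood first, followed by Kdr and Slco1a4. Neighbours in the WT order whose ranges overlapped were Rgs5 with Pecam1 and each of the pairs from Esam down, and in KO those from Esam down to Cldn5. Slco1a4 was the highest of the 10 in WT and the third in KO, while among the other 8 genes only Tek and Cldn5, whose ranges overlapped, changed places.

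The endothelial label was checked against its defining markers, and Cldn5, Tie1, Tek, Flt1 and Esam lay below 1 TPM in every library, so the names are described here gene by gene. Kdr and Slco1a4 made up most of the summed level of those 8 genes, which was 21.9 to 24.7 TPM in WT and 10.3 to 12.9 TPM in KO. Without them, the other 6 genes summed to 1.69 to 2.31 TPM in WT (42 to 54 counts per library) and 1.96 to 2.00 TPM in KO (46 to 52 counts). Of 32 other endothelial identity and signalling genes, 21 lay under the filter and 23 had a mean below 1 TPM. Sox17, an endothelial transcription factor, was at 0 in all 6 libraries, and Icam2 and Ly6c1 were at 0 in all WT libraries. In these bulk cultures, fewer cells of a type and less RNA per cell cannot be told apart.

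**Figure D3:**
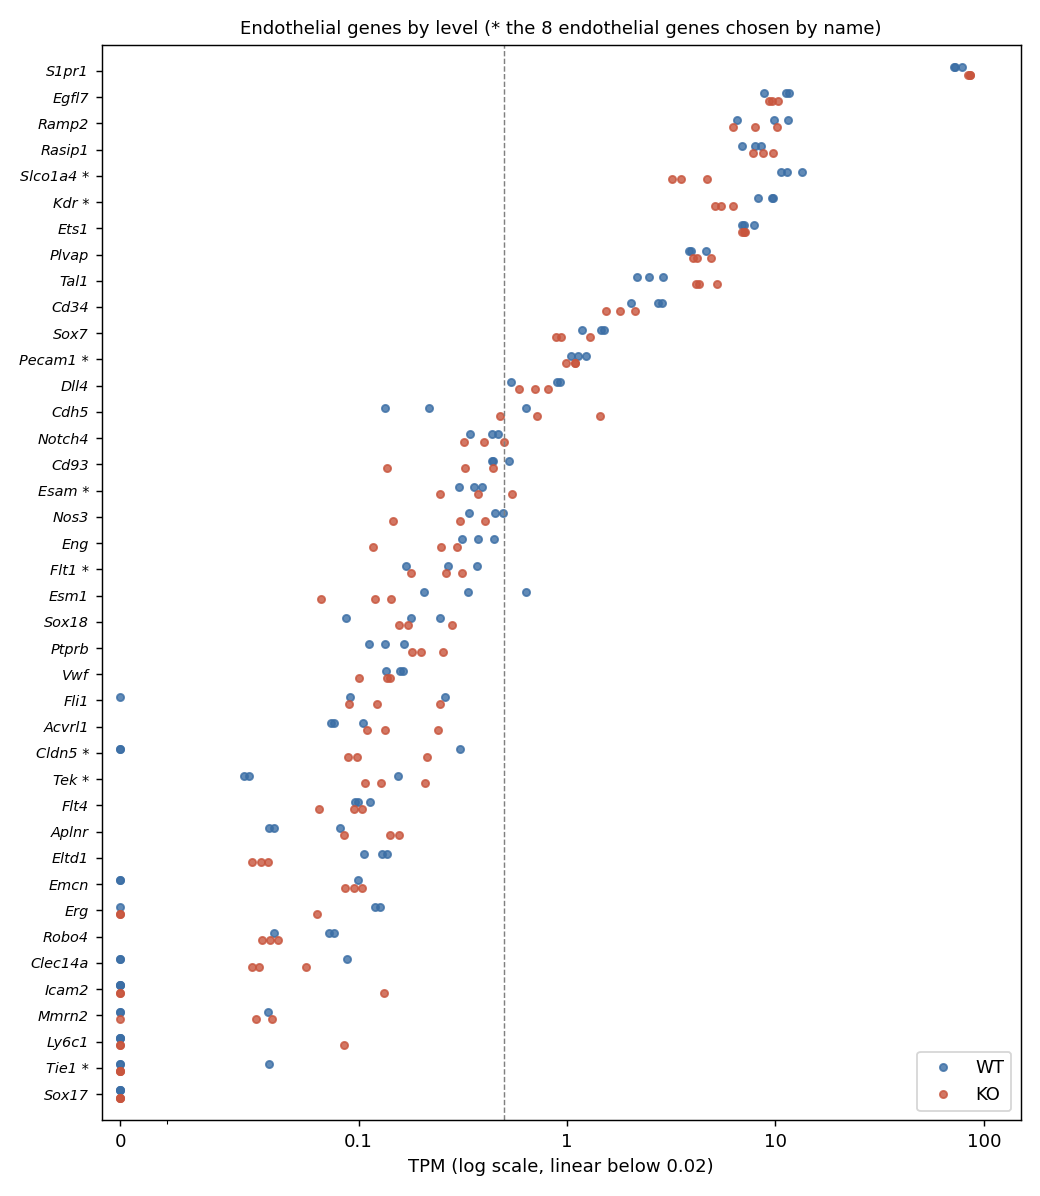
TPM in each WT and KO library (points) of the 8 endothelial genes (marked with an asterisk) and of 32 other endothelial identity genes, on a log axis that is linear near 0; the dashed line marks 0.5 TPM. All libraries of Kdr and Slco1a4 lie above 1 TPM, and all those of Cldn5, Tie1, Tek, Flt1 and Esam lie below it.

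Among the 32, 11 were tested, of which 2 rose and 0 fell. None had an unadjusted p below 0.05 with a lower mean in KO, and limma voom called 3 higher and 0 lower. Tal1, a transcription factor of blood and endothelial precursors that also acts in neurons, rose to 182.4% of WT (2.51 ± 0.362 to 4.57 ± 0.580 TPM, adjusted p = 0.013). S1pr1, the receptor for sphingosine-1-phosphate, was at 74.6 ± 3.82 and 85.3 ± 1.09 TPM, and its call (adjusted p = 0.019) was lost (adjusted p up to 0.071) when any library but WT library 3 was left out. Cdh5 encodes VE-cadherin, the endothelial adherens junction protein. It was at 0.633, 0.218 and 0.134 TPM in the WT libraries and at 1.43, 0.476 and 0.721 TPM in the KO libraries, with overlapping groups. Cdh5 did not pass with limma (adjusted p = 0.24) and was called higher with limma voom (adjusted p = 0.015). Egfl7, Ramp2 and Rasip1 averaged 10.2, 8.70 and 8.28 TPM over all libraries, above the 7.41 TPM of Kdr and the 7.80 TPM of Slco1a4. They were at 92.7%, 87.6% and 112.4% of WT and were not called (adjusted p = 0.63, 0.68 and 0.41). The median log2 difference of the list was -0.04, beside -0.02 for all genes tested.

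Of 20 blood-brain barrier transporters and junction genes, 16 were tested, 3 rose and 3 fell. At an unadjusted p below 0.05, 6 were higher and 3 lower, and limma voom called 6 higher and 3 lower. The median log2 difference of the list was 0.12, beside -0.02 for all genes tested. Slc7a5, a large amino acid transporter that neurons and glia also make, rose to 149.5% of WT (140.7 ± 13.2 to 210.2 ± 6.36 TPM, adjusted p = 0.0015) and kept its call whichever library was left out. Abcg2, an efflux pump, rose to 127.7%, and Pltp and Tjp1, a lipid transfer protein and a junction scaffold, fell to 70.2% and 89.6%. The call of Abcg2 was lost without WT library 1, KO library 1 or KO library 3, and those of Pltp and Tjp1 without WT library 1, WT library 3, KO library 2 or KO library 3 (adjusted p up to 0.059, 0.078 and 0.090). Tfrc rose to 120.6% (adjusted p = 0.046), a call lost without any 1 library (adjusted p up to 0.14). Mfsd2a fell to 87.2% (adjusted p = 0.025), a call lost in 4 of the 6 fits that left out 1 library (adjusted p up to 0.094).

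Of 15 VEGF, angiopoietin and PDGF ligands and co-receptors, 13 were tested, 4 rose and 2 fell. Nrp1, a VEGF co-receptor that axons also carry, rose to 125.9% of WT (38.1, 38.9 and 37.8 to 50.6, 48.0 and 45.9 TPM, adjusted p = 0.0030). Vegfb, a ligand of Flt1, rose to 118.6% (71.8 ± 2.95 to 85.2 ± 2.78 TPM, adjusted p = 0.0078). Pdgfa, a ligand of the alpha PDGF receptor, fell to 87.1% (80.0 ± 1.59 to 69.7 ± 0.968 TPM, adjusted p = 0.0049). Those 3 kept their calls whichever library was left out, while Angpt1, the angiopoietin that activates Tek, rose to 126.0% (adjusted p = 0.017) and lost its call without WT library 1, KO library 1 or KO library 3 (adjusted p up to 0.063). Vegfa, the ligand of Kdr, was at 110.9 TPM in WT and 128.3 TPM in KO and did not pass (adjusted p = 0.059), though it did with limma voom (adjusted p = 0.00018), after median centring and without KO library 2 (adjusted p = 0.039 in each). Kdr and Vegfa therefore had mean differences of opposite sign. Vegfc, another VEGF gene of the list, was at 97.8% of WT and was not called (adjusted p = 0.91). Pdgfb, which encodes the Pdgfrb ligand PDGF-B, fell to 81.7% (26.9 ± 1.69 to 21.9 ± 1.35 TPM, adjusted p = 0.026). That call was lost in 4 of the 6 fits that left out 1 library (adjusted p up to 0.087).

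Of 17 pericyte and smooth muscle genes, 16 were in the table, 9 were tested, 3 fell and 0 rose. At an unadjusted p below 0.05, 6 were lower and 0 higher. With limma voom, 5 were called lower and 0 higher, beside 1423 lower and 1171 higher among all 14983 genes tested. The median log2 difference of the list was -0.42. Tagln, a smooth muscle actin-binding protein, was at 52.3, 39.0 and 55.9 TPM in the WT libraries and at 23.0, 28.2 and 15.6 TPM in the KO libraries (adjusted p = 0.013), and its call was lost without WT library 1 or WT library 3 (adjusted p up to 0.058), without a variance trend (0.058), with a robust trend (0.078) and with the replicate number as a block (0.050). Myl9 fell to 67.6% and Cspg4, the NG2 proteoglycan shared by pericytes and oligodendrocyte precursors, to 87.3%, and the call of Cspg4 was lost without any 1 library and that of Myl9 without any but KO library 2 (adjusted p up to 0.087 and 0.11). Notch3, a receptor of mural cells, was at 12.2 TPM in both groups, and Kcnj8 and Abcc9, which encode a potassium channel of pericytes, had 0 and 27 counts in WT and 2 and 18 in KO. The summed level of the list was 132.1 to 167.8 TPM in WT and 81.4 to 111.0 TPM in KO, without overlap. Most of the difference in that sum came from Tagln and from Acta2, smooth muscle actin, which was at 35.6 ± 7.49 TPM in WT and 20.9 ± 7.07 TPM in KO and did not pass with limma (adjusted p = 0.085) but did with limma voom (adjusted p = 0.00013). Other listed genes had KO levels near those of WT, such as Vtn at 101.0%, or above them, such as Tbx18, which was under the filter with 35 counts in WT and 64 in KO.

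**Figure D4:**
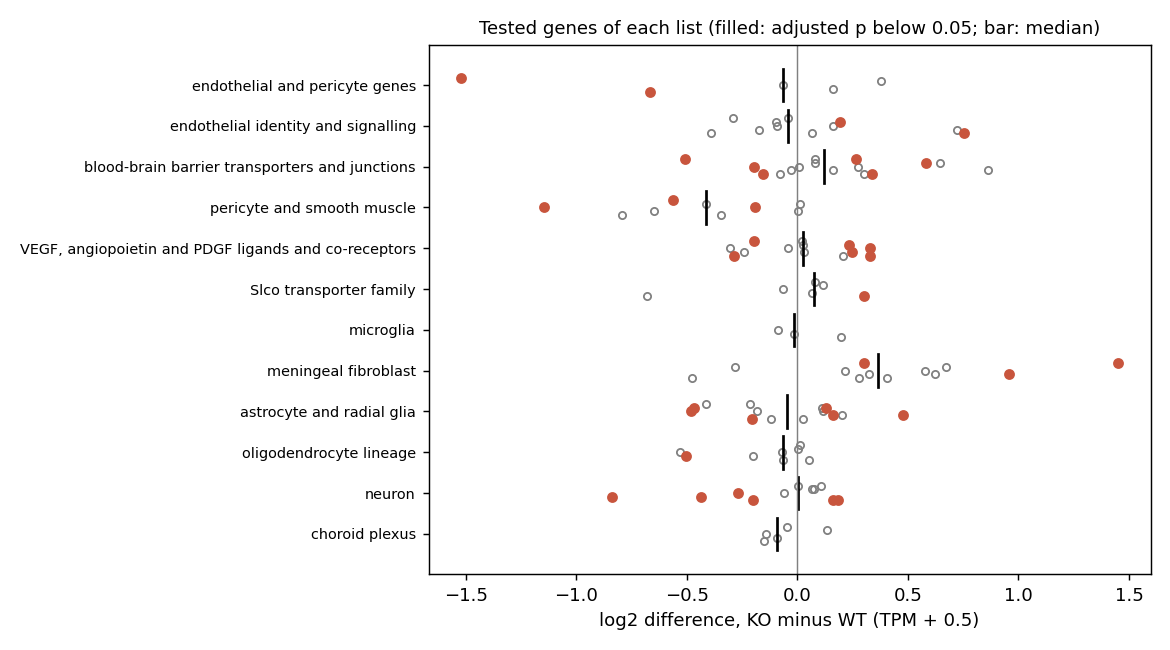
Log2 difference of KO from WT on log2(TPM + 0.5) for each tested gene of each list, with filled points for genes that passed the test. Kdr and Slco1a4 are the filled points of the top row, at -0.67 and -1.52, and the pericyte and smooth muscle list has the lowest median, -0.42.

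Markers of other cells also differed between the WT and KO groups, and their part in the falls of Kdr and Slco1a4 was not tested. Of 12 meningeal fibroblast genes, all tested, 3 rose: Lum from 0.941 to 3.45 TPM (adjusted p = 0.0013), Col1a1 from 2.49 to 5.31 TPM (adjusted p = 0.014, lost at 0.051 without WT library 3) and Dcn to 124.1% (adjusted p = 0.034, lost at up to 0.12 without any library but KO library 2). At an unadjusted p below 0.05, 7 of the 12 were higher and 0 lower. With limma voom, 7 were called higher and 2 lower, and the median log2 difference of the list was 0.36. The summed level of the 12 was 106.0 to 121.9 TPM in WT and 114.3 to 149.9 TPM in KO, and it includes Ogn and Islr, at 69.2% and 82.4% of WT. Of 14 astrocyte and radial glia genes, 3 rose and 3 fell, among them Aldoc at 139.2%, Vim at 72.2% and Nes at 71.2% of WT. The summed level of that list was 5134 to 5365 TPM in WT and 5580 to 5786 TPM in KO. That sum is weighted by the 3 genes that rose, Fabp7 (2509 to 2743 TPM), Aldoc (693.7 to 965.5 TPM) and Slc1a3 (653.6 to 731.5 TPM), which had the highest levels of the list. The call of Fabp7 (adjusted p = 0.045) was lost in 5 of the 6 fits that left out 1 library (adjusted p up to 0.14). Over all alternatives, the log2 difference of Fabp7 ranged from -0.0000 to 0.1548. At an unadjusted p below 0.05, 3 genes were higher and 7 lower, limma voom called 3 higher and 6 lower, and the median log2 difference was -0.05. Aldh1l1 fell to 86.6% (adjusted p = 0.0080), and Gfap, at 75.6%, did not pass (adjusted p = 0.070). Of 11 neuronal genes, 2 rose and 4 fell, among them Slc17a7 to 56.0% and Gad1 to 74.0%, with summed levels of 7317 to 7362 and 7322 to 7409 TPM. Those that rose were Tubb3 to 111.9% and Dcx to 113.6% (adjusted p = 0.017 and 0.012). Their adjusted p rose to as much as 0.070 and 0.055 when 1 library was left out. At an unadjusted p below 0.05, 5 neuronal genes were higher and 4 lower, and limma voom called 5 higher and 4 lower. Of the microglia list, 3 of 15 genes were tested and 0 were called, at an unadjusted p below 0.05 or by limma voom as well, with summed levels of 31.8 to 35.7 and 30.97 to 34.98 TPM. Red blood cell genes were under the filter throughout.

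The chromosomal neighbours of the 2 genes that fell were listed after their values had been seen. Within 500 kb of Kdr, 4 of 6 entries were tested. Clock, a circadian transcription factor whose gene body is 231410 bases from that of Kdr, fell from 34.2 ± 1.19 to 28.9 ± 0.385 TPM (adjusted p = 0.0087), while Kit, Srd5a3 and Tmem165 did not pass. Of these 4 genes, 2 had an unadjusted p below 0.05, Clock and Kit, and limma voom called 1 lower and 1 higher. Within 500 kb of Slco1a4, 5 of 11 entries were tested and 0 passed, with 2 at an unadjusted p below 0.05 and 1 called lower and 1 higher by limma voom. Of those 5, Slco1a5 had the lowest KO level relative to WT, at 57.2%, beside 32.4% for Slco1a4.

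Over the 6 libraries, the genes outside the lists with the pattern most like the mean of the 5 tested members were 2810474O19Rik, Lpar6, Gm15645, Bbs1 and E130006D01Rik. Their Pearson correlations with that mean were 0.989, 0.986, 0.983, 0.982 and 0.981, among 13964 genes compared. All points share the same 6 libraries, and the members' mean joins genes that fell with genes that did not, so the correlations only describe the profile.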

How the data were processed

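The labels name total RNA from 6 neuronal cultures, prepared as mRNA libraries. The deposited table has a name that says FPKM, but each column sums to 1000000, so the values are TPM. The mm10 genome, featureCounts, edgeR, TopHat, Picard 1.127, FastQC 0.11.2 and bcl2fastq 2.17 are named, per the submitters' processing notes, without their roles. Whole counts were recovered from ratios of TPM values for all 19369 entries above 0, within 0.001 counts, for depth, counting limits and limma voom only, and where several lengths were possible the RefSeq-matched transcript length was taken.

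limma 3.58.1 (R 4.3.3), with a variance trend, was fitted to log2(TPM + 0.5) for the 14983 genes averaging 0.5 TPM or more, with Benjamini-Hochberg adjustment. Fold changes on this scale understate those of low genes. Alternatives changed the pseudocount, filter, variance trend, scaling, test or libraries, or added the replicate number as a block. The fit was also run on simulated counts with the same small spread for every gene. That spread was not matched to these libraries, so the run does not show how reliable the calls are here. The members and lists were chosen with earlier results of these data known. Named in each list were called genes, mostly up to 4 with the smallest p, and other genes only where a sentence turned on them. Gene positions come from GENCODE M21 (GRCm38), and promoter sequences from RefSeq (GRCm38.p6).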

Additional observations from a re-analysis of the deposited data

How the results depend on the processing

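Kdr and Slco1a4 kept their direction and their call in all 16 alternatives, with adjusted p up to 0.034 and 0.011 and log2 differences of -0.74 to -0.61 and -1.66 to -1.42. Members called lower stayed at 2 and members called higher at 0 in each of these fits. Counts over all genes moved more. Against 1010 lower and 622 higher, the fit without a variance trend called 658 and 406, the fit with the replicate number as a block called 585 and 360, and limma voom called 1171 higher. Leaving out 1 library gave 493 to 678 lower and 345 to 440 higher, the fewest without WT library 1. Same-numbered libraries did not deviate together (correlations of 0.008, -0.051 and 0.011), so the number pairs nothing, and the block left Kdr at an adjusted p of 0.034 and Slco1a4 at 0.0087. Other listed genes also lost their calls: without a variance trend Myl9 (adjusted p = 0.094), Dcn (0.090), Pltp (0.065), Tjp1 (0.066) and S1pr1 (0.068), and with the block Myl9 (0.080), Dcn (0.080), Cspg4 (0.066), Tjp1 (0.059), Abcg2 (0.058) and Slco5a1 (0.070). The share of calls that were higher was 38.1%, and 53.1% after median centring, 49.2% after quantile normalization and 45.1% with limma voom. The depth of 19984490 to 23769186 counts per library leaves Cldn5, Tie1, Tek, Flt1 and Esam at too few counts for a comparison.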
